A study of Mus musculus with 9 samples.

Results

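The genes described here are 10 markers of macrophages and other leukocytes: Cd68, Emr1 (the older name of Adgre1, which encodes F4/80), Csf1r, Cx3cr1, Mrc1, Cd163, Lyve1, Aif1, Ptprc and Tyrobp. They were taken by symbol from the gene names of the array, which gave 14 probes of the 10 genes among 39429 probes with 31829 gene names. Csf1r had 3 probes, Cx3cr1 and Emr1 had 2 each, and the other 7 genes had 1 each. The levels came from 9 dual-colour arrays of laser dissected choroid (CH), retinal pigment epithelium (RPE) and photoreceptors (PR), with 3 arrays per tissue. All were from healthy female C57BL/6 mice (substrain C57BL/6JOlaHsd in the methods of the study), labelled as 6 months old with a range of 2 weeks to either side, whereas the methods of the study give an age one month lower. Each sample was the tissue of a single eye. Its amplified RNA was labelled with Cy5 and hybridised against one Cy3-labelled reference made from RPE and choroid RNA together. The labels do not say whether the CH, RPE and PR samples of one number came from the same animal.

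Macrophages arise from the yolk sac, fetal liver and bone marrow and depend on signals through the receptor CSF1R, whose ligands are CSF1 and IL34. In the eye, resident macrophages lie around the vessels of the choroid, which feeds the outer retina, and microglia are the macrophages of the neural retina. The RPE is a single layer of pigmented epithelium between the choroid and the photoreceptors, and the photoreceptor layer of a healthy adult eye holds few microglia.

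The probes of the adaptor Tyrobp, the leukocyte phosphatase Ptprc and the scavenger receptor Cd163 are shown first, because the values below are what hybridised to such sequences. They are given 5′ to 3′ as designed, with the mm9 positions of the array files.
Tyrobp (chr7:31200651-31202378, plus strand): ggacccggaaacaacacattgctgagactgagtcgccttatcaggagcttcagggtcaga
Ptprc (chr1:139961083-139961142, minus strand): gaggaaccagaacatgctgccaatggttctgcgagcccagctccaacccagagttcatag
Cd163 (chr6:124270436-124270495, plus strand): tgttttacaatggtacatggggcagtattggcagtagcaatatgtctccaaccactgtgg
The Tyrobp probe has 60 bases but its position spans 1728 bases of the genome, so the sequence crosses at least one intron. The probes of the other members are described by their values only.

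The RefSeq table of mouse promoters (GRCm38.p6) held windows for 6 of the 10 genes: Cd68, Cx3cr1, Mrc1, Cd163, Aif1 and Ptprc. The 250 bases before the start were searched on both strands for GAGGAA, which reads as TTCCTC where it lies on the opposite strand. It is the purine-rich core bound by ETS factors such as PU.1, a regulator of myeloid genes. The letters were found before 4 of the 6 genes, against 25.9% of the 27025 genes with a window, and in 23.3% of all 32851 windows. The windows of 3 genes that hold the letters and were called higher in CH than in PR are shown, with the match in capitals.
Mrc1 (chr2:14229164-14229413, plus strand): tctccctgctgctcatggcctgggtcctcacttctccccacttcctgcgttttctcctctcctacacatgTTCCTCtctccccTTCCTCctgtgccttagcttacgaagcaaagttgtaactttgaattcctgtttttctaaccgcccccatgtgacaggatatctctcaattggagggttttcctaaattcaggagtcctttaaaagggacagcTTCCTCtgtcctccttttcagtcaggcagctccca
Aif1 (chr17:35176053-35176302, minus strand): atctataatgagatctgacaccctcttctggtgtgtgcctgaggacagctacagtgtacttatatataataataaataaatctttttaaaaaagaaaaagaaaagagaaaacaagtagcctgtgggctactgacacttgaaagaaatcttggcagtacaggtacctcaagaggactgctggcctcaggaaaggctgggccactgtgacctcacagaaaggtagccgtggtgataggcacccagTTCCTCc
Cd68 (chr11:69666171-69666420, minus strand): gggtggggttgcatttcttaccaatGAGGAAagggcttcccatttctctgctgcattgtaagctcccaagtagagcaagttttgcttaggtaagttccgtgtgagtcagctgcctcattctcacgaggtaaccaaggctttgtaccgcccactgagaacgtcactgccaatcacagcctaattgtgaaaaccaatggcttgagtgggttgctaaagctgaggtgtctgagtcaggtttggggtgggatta
The Mrc1 window holds 3 matches, ending 174, 161 and 29 bases before the start, and the Aif1 match ends 1 base before it. The Cd68 match ends 219 bases before the start. Ptprc has 2 windows, of which one holds a match ending 152 bases before its start, and those of Cx3cr1 and Cd163 hold none. A match of this kind describes these letters only.

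The median Cy5 signal was 1111 to 1139 in CH, 991 to 1534 in RPE and 617 to 963 in PR. RPE replicate 2 stood apart, with 91.7% of its probes well above background, against 62.1% to 71.2% on the other 8 arrays, and leaving it out changed none of the counts of called members below. Pearson correlations of log ratios between arrays of one tissue were 0.878 to 0.934 in CH, 0.861 to 0.918 in RPE and 0.942 to 0.979 in PR. All values below are log2 ratios of Cy5 to the reference. A probe was called when the fold change (FC) was above 2.5 and the Benjamini-Hochberg (B-H) adjusted p over all probes was below 0.01, and a gene when any of its probes was called. p-values measure the spread between these single-eye samples. In whole tissue, a lower signal from fewer macrophages and one from less RNA per macrophage cannot be told apart.

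The order CH over RPE over PR held for the means of 7 members, namely Emr1, Mrc1, Aif1, Tyrobp, Cx3cr1, Cd68 and Ptprc, and Csf1r, Cd163 and Lyve1 differed from it. Between CH and PR, 8 of the 10 genes were called higher in CH and 0 higher in PR, where 13.2% of all 31829 gene names were called higher in CH and 6.84% higher in PR. Between RPE and PR, 6 genes were called higher in RPE and 0 higher in PR, where the shares of all gene names were 11.3% and 5.66%. Between RPE and CH, 4 genes were called higher in CH and 0 higher in RPE, against 1.81% and 0.217% of all gene names. The 4 genes were Emr1, Mrc1, Tyrobp and Aif1, and with the Cy5 signal alone or the series table of the authors the count was 2, without Tyrobp and Aif1. The median difference of the 10 genes was 3.17 for CH minus PR, 1.91 for RPE minus PR and -0.89 for RPE minus CH. The medians over all probes were -0.05, -0.01 and 0.04. The comparisons share arrays, so they are given side by side and not set against each other.

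**Figure D1:**
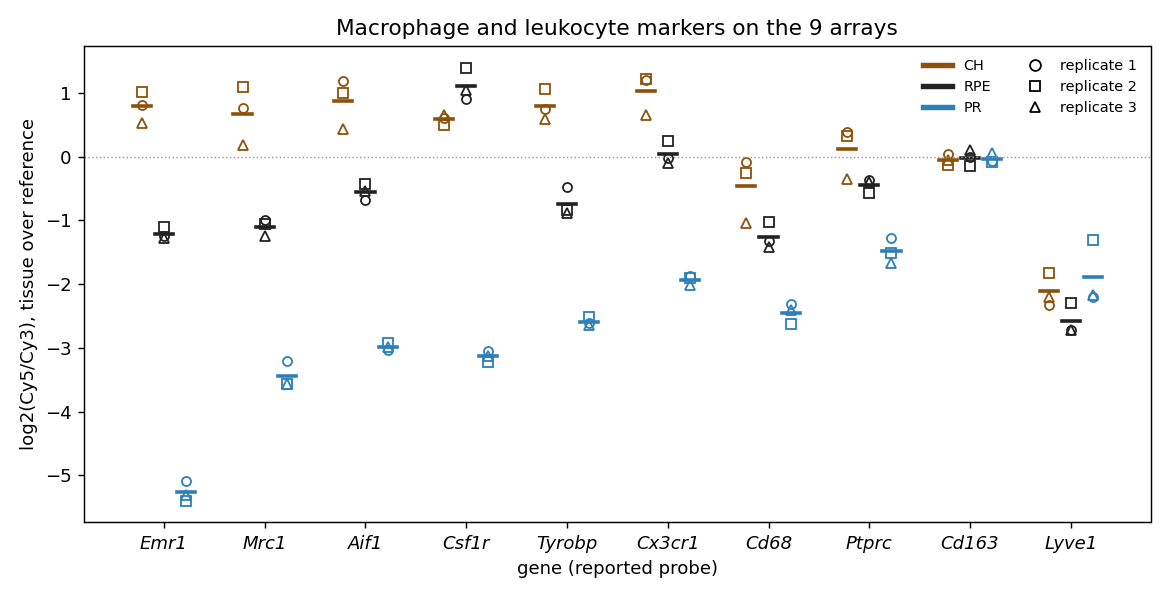
Log2 ratio of Cy5 to the common reference (y axis) for the reported probe of each of the 10 genes (x axis) on the 9 arrays, coloured by tissue and shaped by replicate, with a bar at each tissue mean. The PR values of Emr1 lie between -5.39 and -5.09, Csf1r is the gene whose RPE points all lie above its CH points, and Lyve1 lies below the reference on every array.

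**Figure D2:**
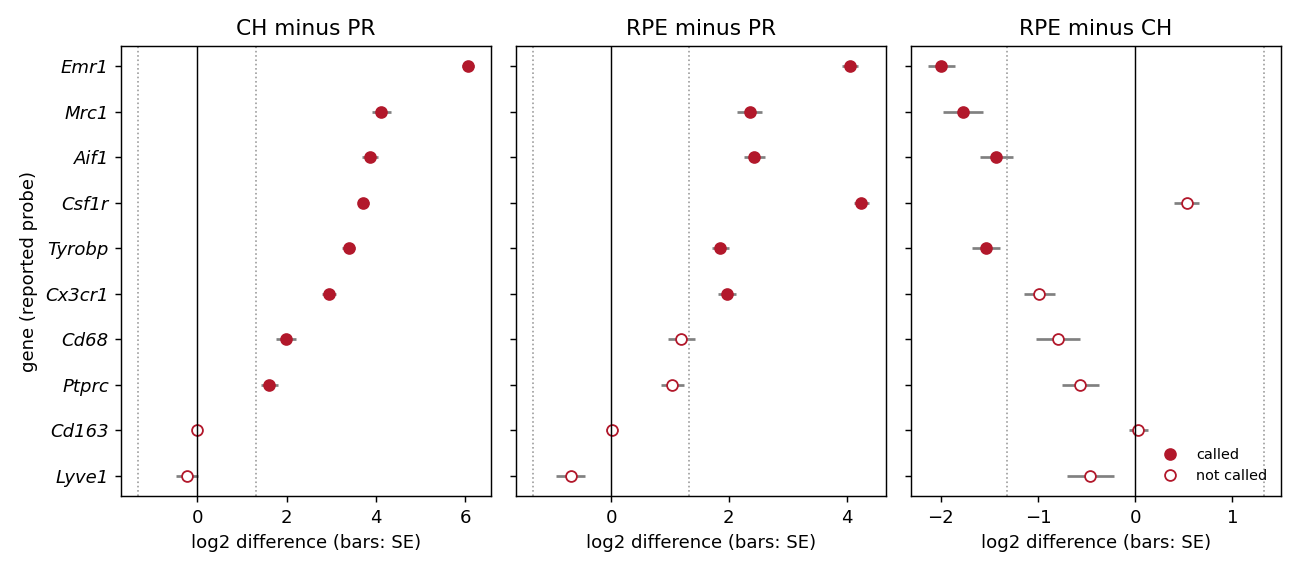
Log2 difference (x axis) with its SE (bars) for the reported probe of each gene (y axis), in 3 comparisons with their own axis ranges; filled points were called, open points were not, and dotted lines mark an FC of 2.5. In the RPE minus CH panel, 4 points are filled, all to the left of zero, and Csf1r lies to the right at 0.53.

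Csf1r encodes the receptor for CSF1 and IL34 on which macrophages and microglia depend. Its log2 ratios on the reported probe, the one with the highest mean Cy5 signal, were 0.61, 0.50 and 0.65 in CH, 0.91, 1.40 and 1.04 in RPE, and -3.05, -3.22 and -3.12 in PR. Every RPE array lay above every CH array and every PR array lay far below both. The difference was 4.25 ± 0.13 (SE) for RPE minus PR (B-H adjusted p = 1.07e-08) and 3.72 ± 0.13 for CH minus PR (FC 13.2, B-H adjusted p = 1.21e-08). RPE minus CH was 0.53 ± 0.13 (FC 1.44, B-H adjusted p = 0.0162), which was not called.

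The other Csf1r probes gave the same direction between RPE and CH, with no overlap of arrays. One read 0.73, 0.87 and 0.95 in RPE and 0.25, -0.24 and -0.26 in CH, a difference of 0.93 ± 0.14 (B-H adjusted p = 0.00168) that passed the p threshold at an FC of 1.91 but not the FC threshold. The third read 0.35, 0.74 and 0.29 in RPE and 0.03, -0.05 and -0.26 in CH, a difference of 0.55 ± 0.13 (B-H adjusted p = 0.0140). The probes disagreed on PR: the third read 0.03, -0.01 and -0.01 there, within 0.10 of CH, while the other two read between -3.22 and -2.10. Within slides, RPE minus CH for the reported probe was 0.34 on the slide with 2 arrays of each tissue and 0.90 on the slide with 1 of each. Without RPE replicate 2 it was 0.39 (B-H adjusted p = 0.0313). Among the ligands, Csf1 was at 1.84, 1.73 and 1.03 in CH, 0.63, 0.68 and 0.45 in RPE and -2.20, -1.998 and -2.28 in PR on its reported probe, and was called higher in both CH and RPE than in PR. Il34, the ligand made by neurons and epithelia, was 2.69 higher in CH than in PR and 1.91 higher in RPE than in PR, both called. RPE minus CH was -0.95 on the reported Csf1 probe (B-H adjusted p = 0.00728), under the FC threshold, but another of its 3 probes gave -1.35 (B-H adjusted p = 0.000287), so that Csf1 was called higher in CH. For Il34 it was -0.78 (B-H adjusted p = 0.00461), under the FC threshold.

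**Figure D3:**
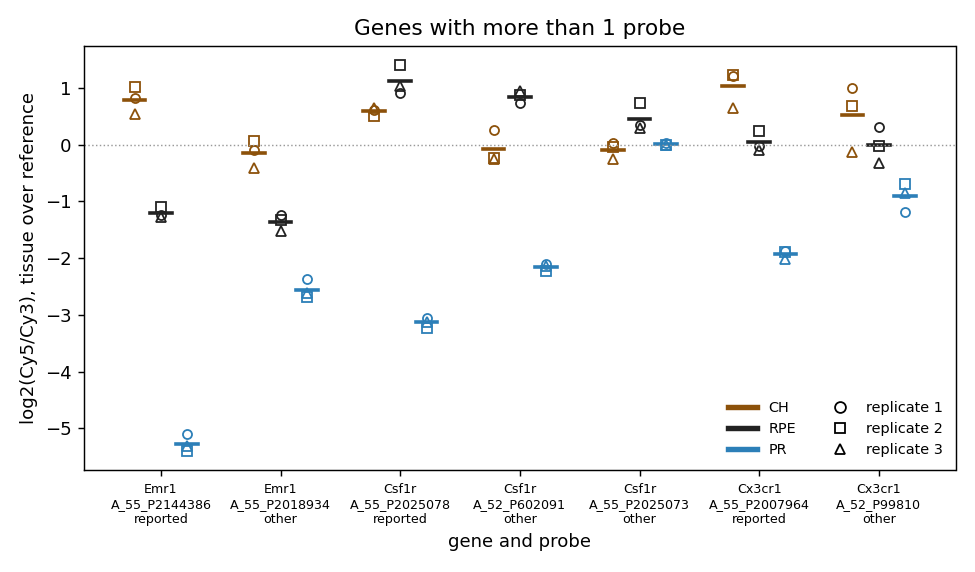
Log2 ratio of Cy5 to the reference (y axis) for each probe of the 3 genes with more than 1 probe (x axis), by tissue (colour) and replicate (shape), with bars at tissue means. The RPE points lie above the CH points for all 3 Csf1r probes, and the PR points of the third Csf1r probe lie near 0 while those of the other Csf1r probes lie below -2.

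Emr1 encodes F4/80, an adhesion receptor of mature mouse macrophages. Its log2 ratios were 0.81, 1.02 and 0.54 in CH, -1.24, -1.11 and -1.27 in RPE, and -5.09, -5.39 and -5.31 in PR. The 3 tissues did not overlap, and Emr1 had the largest difference of the members in CH minus PR. It was 6.06 ± 0.14 there (FC 66.5, B-H adjusted p = 2.13e-09) and 4.06 ± 0.14 in RPE minus PR (FC 16.7, B-H adjusted p = 1.64e-08). RPE minus CH was -1.99 ± 0.14 (FC 3.98, higher in CH, B-H adjusted p = 6.32e-05). The second probe gave smaller differences, -1.21 for RPE minus CH, 1.19 for RPE minus PR and 2.41 for CH minus PR, in the same directions, and was called in the last only.

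Cx3cr1 encodes the receptor for fractalkine (Cx3cl1) on microglia and monocytes. It was at 1.20, 1.22 and 0.65 in CH, -0.02, 0.24 and -0.10 in RPE and -1.87, -1.90 and -2.02 in PR, without overlap. It was called higher in CH than in PR by 2.96 ± 0.16 (FC 7.76) and higher in RPE than in PR by 1.97 ± 0.16 (FC 3.91, B-H adjusted p = 4.19e-06). RPE minus CH was -0.99 ± 0.16 (FC 1.98, B-H adjusted p = 0.00234), not called. Its second probe, with PR replicate 1 not well above background, gave 1.42 for CH minus PR, which was called, 0.90 for RPE minus PR and -0.52 for RPE minus CH, and its CH and RPE arrays overlapped. The ligand Cx3cl1 was called higher in CH (by 3.48) and in RPE (by 3.02) than in PR, and its RPE minus CH of -0.46 had a B-H adjusted p of 0.243.

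Tyrobp encodes DAP12, the signalling adaptor of TREM2 and other myeloid receptors. It was at 0.75, 1.06 and 0.59 in CH, -0.48, -0.84 and -0.89 in RPE and -2.61, -2.52 and -2.63 in PR, and no tissue overlapped another. CH minus PR was 3.39 ± 0.15 (FC 10.5), RPE minus PR 1.85 ± 0.15 (FC 3.61, B-H adjusted p = 3.17e-06), and RPE minus CH -1.54 ± 0.15 (FC 2.90, B-H adjusted p = 0.000194), all called. Trem2, a lipid-sensing receptor that signals through DAP12, ran in the same order: 4.28 for CH minus PR, 2.30 for RPE minus PR and -1.98 for RPE minus CH, all called. Cd200r1, the inhibitory myeloid receptor for CD200, was called higher in CH than in RPE by 1.87 and was not well above background on any PR array.

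Aif1 encodes IBA1, an actin-binding protein of macrophages and microglia. It was at 1.19, 1.01 and 0.44 in CH, -0.68, -0.42 and -0.54 in RPE and -3.03, -2.93 and -2.99 in PR, and the tissues did not overlap. The differences were 3.87 ± 0.17 for CH minus PR, 2.44 ± 0.17 for RPE minus PR and -1.43 ± 0.17 for RPE minus CH (FC 14.6, 5.41 and 2.69), all called. The call between RPE and CH (B-H adjusted p = 0.000580) was lost without CH replicate 1, where the difference was -1.27.

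Cd68, a lysosomal glycoprotein of phagocytes, was at -0.09, -0.26 and -1.05 in CH, -1.33, -1.03 and -1.41 in RPE and -2.31, -2.62 and -2.41 in PR. One CH array (replicate 3) reached into the RPE range, and the PR arrays were apart from both. It was called higher in CH than in PR (1.98 ± 0.23, FC 3.95). RPE minus PR was 1.19 ± 0.23 (FC 2.28, B-H adjusted p = 0.00147) and RPE minus CH was -0.79 ± 0.23 (B-H adjusted p = 0.0328), not called. Ptprc encodes CD45, the tyrosine phosphatase carried by all leukocytes. It was at 0.39, 0.33 and -0.36 in CH, -0.36, -0.57 and -0.39 in RPE and -1.28, -1.52 and -1.66 in PR, so that CH replicate 3 lay just above the RPE arrays. It was called higher in CH than in PR (1.61 ± 0.19, FC 3.05), while RPE minus PR was 1.04 ± 0.19 (FC 2.06) and RPE minus CH -0.57 ± 0.19 (B-H adjusted p = 0.0626), not called.

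The 3 members used as markers of perivascular and tissue-resident macrophages did not move together. Mrc1, the mannose receptor CD206, was at 0.76, 1.09 and 0.18 in CH, -0.98, -1.06 and -1.24 in RPE and -3.21, -3.57 and -3.57 in PR. It was called in all 3 comparisons, 4.12 ± 0.21 for CH minus PR (FC 17.4), 2.35 ± 0.21 for RPE minus PR (FC 5.11) and -1.77 ± 0.21 for RPE minus CH (FC 3.41, B-H adjusted p = 0.000535). Lyve1, the hyaluronan receptor of lymphatic endothelium and of some resident macrophages, was at -2.32, -1.82 and -2.19 in CH, -2.71, -2.30 and -2.71 in RPE and -2.20, -1.30 and -2.16 in PR. It was well above background on all 9 arrays yet below the reference on each, and 1.41% of all probes lay at or below its highest value of -1.30 on all 9 arrays. It was called in no comparison of the log ratios: -0.46 ± 0.24 for RPE minus CH, -0.68 ± 0.24 for RPE minus PR (B-H adjusted p = 0.0403) and -0.22 ± 0.24 for CH minus PR (B-H adjusted p = 0.486). With the Cy5 signal alone, it was called higher in PR than in RPE (RPE minus PR of -1.41, B-H adjusted p = 0.00167). Cd163, the haemoglobin-haptoglobin scavenger receptor, was not well above background on 8 of the 9 arrays, in the sample or in the reference channel. The exception was RPE replicate 2, and its differences had B-H adjusted p of 0.860 or more.

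Of the 18 genes listed for perivascular and resident macrophages, 4 were called higher in CH than in RPE and 7 higher in RPE than in PR. In CH against PR, 8 were called higher in CH, and 0 were called in the other directions. The shares of all gene names in these 3 directions were 1.81%, 11.3% and 13.2%. The largest differences were those of Ms4a7 (5.99 for CH minus PR, -2.33 for RPE minus CH) and Stab1 (4.70 for CH minus PR), a scavenger receptor also made by some endothelium. Cd5l, a secreted scavenger protein of macrophages, was 3.97 higher in CH than in PR. Of the 18 genes, 9 lay below the reference on all 9 arrays, whereas 8 had a CH mean above it, among them Stab1, Ms4a7 and Cd5l. The share of all probes below the reference on all 9 arrays was not counted, so no trait of the list is read from the 9. Among the 9, Cd209b and Timd4 were well above background on 0 CH arrays and Vsig4 on 1. Cbr2, Cd209f, Folr2 and F13a1, named after their values were seen and known from LYVE1-bearing resident macrophages, were among the 9, from -2.87 to -2.18 for Cbr2 and from -3.08 to -2.37 for Cd209f, which was well above background on 2 of 3 arrays in each of CH and RPE. Folr2 was at -1.53, -1.90 and -1.43 in CH and -0.81, -1.27 and -0.73 in RPE. F13a1 was not well above background on any PR array and was called higher in CH than in PR. Pf4, also among the 9, was called higher in CH than in PR too (3.54). These genes were picked and do not stand for the list.

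**Figure D4:**
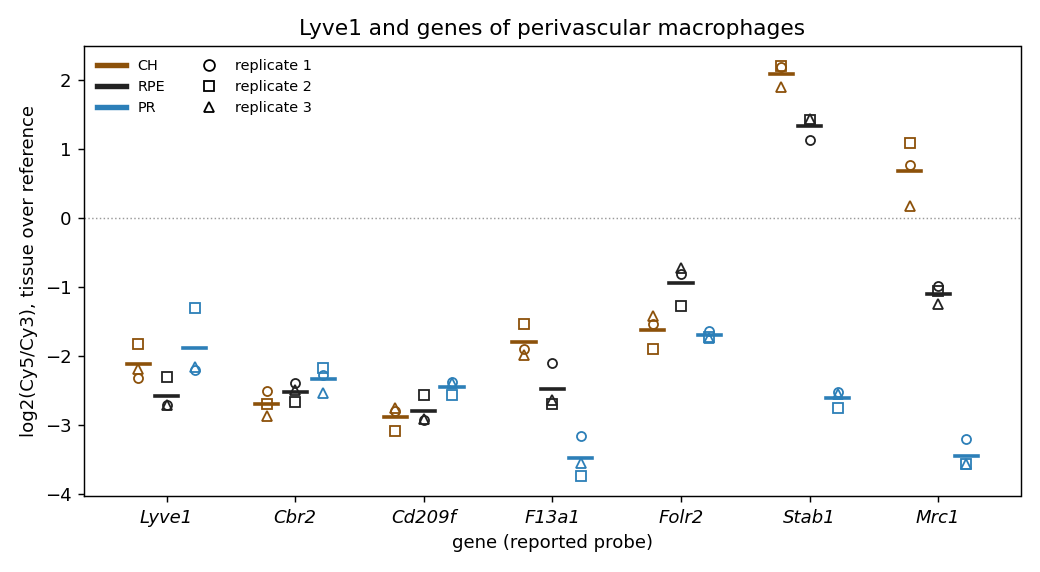
Log2 ratio of Cy5 to the reference (y axis) for Lyve1, 5 other genes of perivascular and resident macrophages and Mrc1 (x axis), on the 9 arrays by tissue (colour) and replicate (shape), with bars at tissue means. Lyve1, Cbr2, Cd209f, F13a1 and Folr2 lie below 0 on every array, while Stab1 and Mrc1 spread from above 0 in CH to below -2 in PR.

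Among 24 core genes of microglia and macrophages, 9 were called higher in CH than in RPE, 13 higher in RPE than in PR and 18 higher in CH than in PR, with medians of -1.21, 1.40 and 2.62. The shares of all gene names in these directions were 1.81%, 11.3% and 13.2%. Ctss, a lysosomal protease of macrophages, led with -2.95, 3.85 and 6.80 for RPE minus CH, RPE minus PR and CH minus PR. Laptm5, a lysosomal protein of leukocytes, followed with -2.08, 2.69 and 4.76. Some core genes, none of them called, departed from this order. In the same 3 differences, Itgam was at 0.045, -0.043 and -0.088, Siglech at -1.06, -1.08 and -0.02, and Sall1 at 0.71, 0.475 and -0.23. Spi1, which encodes PU.1 and is named because its motif was searched, was well above background on 1 array only, in RPE. General leukocyte genes gave 5, 12 and 16 of 20 in the same 3 directions, among them the actin-bundling protein gene Lcp1 (-1.36, 2.59 and 3.94). The genes of the ligands and partners of the members gave 4, 11 and 13 of 20.

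The lists of other leukocytes are short. Of all gene names, 1.81% were called higher in CH than in RPE and 0.217% higher in RPE than in CH. Counts of 0 or 1 between RPE and CH are near these shares and do not set the lists apart. The shares called higher than in PR were 11.3% in RPE and 13.2% in CH. For T and NK cells, 0 of 14 were called between RPE and CH and 5 were higher in each of CH and RPE than in PR, among them Cd2, Klrd1 and Cd3g. For B cells, 0 of 8 were called between RPE and CH, and Ms4a1 and Cd79b were called higher in CH and RPE than in PR. No other B cell gene was called, and the list medians were 0.077 for RPE minus PR and -0.054 for CH minus PR. Cr2 (-1.25 and -1.28) and Cd22 (-0.97 and -0.43) lay the other way in these 2 differences. For neutrophils and monocytes, 1 of 14 was called higher in CH than in RPE (Camp, an antimicrobial peptide of granules, by 2.47) and 7 higher in RPE than in PR, among them Ccr2 and Plac8. For dendritic cells, Itgax was the 1 gene of 10 called higher in CH than in RPE, 3 were higher in RPE than in PR and 5 higher in CH than in PR. Cd207, a lectin of Langerhans cells, was called higher in PR than in RPE and CH (differences of -1.44 and -1.51). It was well above background on 0 CH arrays and 1 RPE array. Cd2, Klrd1, Cd3g, Ms4a1 and Ccr2 were well above background on 0 PR arrays.

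**Figure D5:**
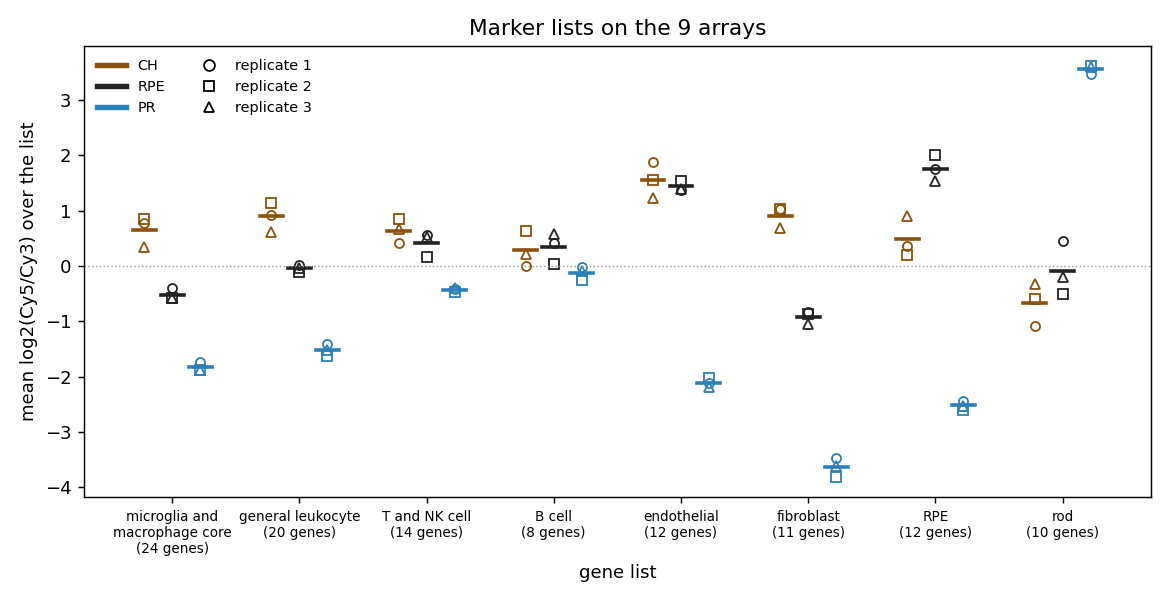
Mean log2 ratio over the genes of each marker list (y axis) on the 9 arrays, for 4 lists of leukocytes and 4 of layers (x axis), by tissue (colour) and replicate (shape), with bars at tissue means. CH lies above RPE for the core macrophage, general leukocyte and fibroblast lists, the CH and RPE points overlap for T and NK, B and endothelial genes, and the rod list is high in PR.

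Markers of other cells moved with the tissues, and their part in the differences above was not tested. Between RPE and CH, 9 of 11 fibroblast genes were called higher in CH (median -1.75, array means 0.68 to 1.02 in CH and -1.04 to -0.84 in RPE), as were 4 of 11 pigment cell genes. Of 12 RPE genes, 9 were called higher in RPE (median 1.39). The shares of all gene names called between RPE and CH were 1.81% higher in CH and 0.217% higher in RPE. None of 12 endothelial genes was called between RPE and CH (median -0.11, array means 1.23 to 1.87 in CH and 1.38 to 1.54 in RPE). PR had all 10 rod genes and all 8 cone genes called higher than in either other tissue. The mean over the RPE genes was above the reference on each CH array, at 0.20 to 0.90. Not every gene was: Trpm3, on its reported probe, lay below the reference on all 3 CH arrays. Of the 12, 11 were well above background on all 3 CH arrays. The slide of PR replicates 1 and 3 held PR only, so for these arrays slide and tissue cannot be told apart. On the slide with 1 array of each tissue, CH minus PR was 6.41 for Emr1, 4.66 for Mrc1 and 3.93 for Aif1. RPE minus CH kept its sign on both slides for the 4 called genes: -1.93 and -2.13 for Emr1, -1.58 and -2.15 for Mrc1, -1.36 and -1.90 for Tyrobp, and -1.43 on each for Aif1.

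Over the 9 arrays, the detected members other than Lyve1 and Csf1r varied together, with Pearson r between 0.953 and 0.997 for each pair. Csf1r had r of 0.822 to 0.900 with these, and Lyve1 had r of -0.571 to -0.232 with the others. These are descriptions over arrays of 3 tissues, which set most of the variation, and they carry no test. The genes with the highest mean r over the 9 detected members, among 21487 ranked, had mean r of 0.834 to 0.836. In order, they were 4930429F24Rik, Ly6c1, Akr1b8, 2310079F09Rik, Cxcl16, Rassf5, Ifitm3, Tpm3, Spats2l and Adamts8. All ran in the order CH over RPE over PR.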

How the data were processed

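The authors deposited Agilent Feature Extraction 9.5.3.1 output for 9 dual-colour arrays. The mean spot signals and median local backgrounds are deposited intensity values. The deposited log10 ratio (Cy5 over Cy3) and the authors' series table of log2 Cy5 values served as alternatives. The table's r with log2 Cy5 was 0.9845 to 0.9991 per array, and its normalization steps are not given in the sources used here. The submitters' processing notes name R 2.14.0 and limma. Precision is set by having 3 arrays for each tissue. The 10 genes and all marker lists were chosen with earlier results of these data known.

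Background was corrected with normexp (offset 50), ratios were normalized by loess within arrays, spots marked as outliers were left out and repeated spots averaged. One mean per tissue was fitted over all 9 arrays with limma 3.58.1 in R 4.3.3, with B-H adjustment over all 39429 probes. On simulated arrays, 98 of 100 probes changed by a log2 difference of 3 and 90 of 100 changed by 2 were called between RPE and CH, and 0 unchanged probes. The simulated noise was independent for each probe, without slide or array effects or normalization, so these counts do not cover such effects in the real arrays. Changes smaller than 2 were not simulated, and the members differed between RPE and CH by -1.994 to 0.931. The reported probe of a gene is that with the highest mean Cy5 signal. From each list, at most the 4 called genes with the largest non-overlapping difference in a comparison, and up to 2 uncalled ligands or partners, were named. Some genes that this rule chose are not reported here. Positions are mm9, and promoters come from RefSeq on GRCm38.p6.

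Alternatives covered background correction, normalization, single channels, probe filters, variance models, blocks for replicate number and slide, thresholds and leaving out each array.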

Additional observations from a re-analysis of the deposited data

How the results depend on the processing

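The 8 genes called between CH and PR numbered 8 under every alternative tried, leaving out each array included. The 6 genes called between RPE and PR numbered 6 to 8, and 6 whenever an array was left out. The 7 with the Cy5 signal alone were 6 higher in RPE and 1, Lyve1, higher in PR (-1.405, within -1.405 to -0.39 over its alternatives). The 4 genes called between RPE and CH numbered 3 to 4 when arrays were left out, the 3 without CH replicate 1, where Aif1 lost its call. They numbered 2 with the Cy5 signal alone and 2 with the series table of the authors, where Aif1 and Tyrobp lost their calls at B-H adjusted p from 0.0109 to 0.015, and the cause was not tested. Over all probes, 685 were called between RPE and CH, 1183 with median centring, 405 with the series table and 1708 at a fold change above 2. With median centring Cx3cr1 was called too (-1.32).

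Csf1r was higher in RPE than in CH under all 26 alternatives, by 0.257 to 0.67. Of 777 alternative values, 756 kept direction and side of the thresholds and 13 changed sign, all in uncalled values near zero. For Cd163, RPE minus CH became -0.05 without background correction, -0.146 with the Feature Extraction log ratio, -0.009 without CH replicate 2 and -0.028 without RPE replicate 3, in a range of -0.028 to 0.095 when single arrays were left out. RPE minus PR became -0.044 without background correction, -0.037 with slide as a fixed block, -0.041 without RPE replicate 3 and -0.004 without PR replicate 2, in a range of -0.041 to 0.082. CH minus PR became 0.006 without background correction, 0.22 with the log ratio, and 0.029 without CH replicate 2 and without PR replicate 3, in a range of -0.058 to 0.029. For Lyve1, CH minus PR became 0.072 without PR replicate 2, in a range of -0.379 to 0.072. Cd163 has no value where probes had to be well above background.

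Whether replicate numbers pair the arrays was not settled: 4 of 9 same-numbered pairs had a correlation of deviations above 0.1 (from -0.076 to 0.289). Of the 9 arrays, 5 correlated best with their own number. The arrays numbered 2 were all on one slide, so for them number and slide cannot be told apart. With the replicate number as a block, the counts were 4, 6 and 8 for RPE against CH, RPE against PR and CH against PR.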

Other observations

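Of 9 mast cell genes, 5 were called higher in CH than in PR (Kit, Cpa3, Cma1, Mcpt4 and Fcer1a) and 2 higher in RPE than in PR, while 1, Hdc, was called higher in PR in both comparisons. Of all gene names, 13.2% were called higher in CH than in PR and 11.3% higher in RPE than in PR. Fcer1a was well above background on 1 CH array and on 0 arrays of RPE and of PR. Kit, also a gene of pigment cells, was called higher in CH (4.53) and RPE (3.70) than in PR, and Cpa3, a mast cell protease, was called higher in CH (2.72) and RPE (1.53) than in PR. Hdc, the histamine-forming enzyme, was called lower in CH (-2.91) and RPE (-2.46) than in PR. Of the 6 genes listed for lymphatic endothelium, which also carries Lyve1, only Pdpn was called. It was 3.81 higher in CH and 4.76 higher in RPE than in PR. A count of 1 in 6 lies near the shares of all gene names and is not read as a trait of the list. None of the 6 lens genes was called in any comparison with limma, although their array means ranged from -2.59 to 4.30.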
